A study of Mus musculus with 4 samples.

Results

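Collagens are the main structural proteins of the extracellular matrix. Each molecule is wound from a triplet of alpha chains, which are copies of a single chain in some types and the products of different genes in others. Fibrillar collagens form the cables of connective tissue, type IV collagens form the sheets of basement membranes, type VI collagens form beaded filaments around cells, and the fibril-associated types decorate the cables. In the developing central nervous system, the neuroepithelium lies on a basement membrane rich in type IV collagen, while the fibrillar types are typical of the meninges, the vessel walls, and mesenchyme.

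The collagen genes were taken as every gene whose symbol is Col, a number, the letter a, and a number. There were 44 of them among the 27612 genes of all the tables. Single-cell transcriptomes were measured in 4 lines labelled as neural stem cells (NSCs) that had been derived from epiblast stem cells of the mouse strain 129/Sv, to ask how the Wnt signal input during derivation sets the anteroposterior character of the cells. All 4 lines were grown with EGF at 10 ng/ml and FGF2 at 10 ng/ml. XN4 and XN1 were given 10 µM XAV939, an inhibitor of Wnt signaling, which came from a different supplier for each line and, for XN1, formed precipitates. KN1 was given neither compound, and CN4 was given 2 µM CHIR99021, an activator of Wnt signaling. The order of Wnt signal input that the study gives is XN4, XN1, KN1, and CN4. In it, XN1 stands above XN4 because the study infers that the precipitates lowered the effective concentration of XAV939. The Wnt signal of the lines was not assessed here. Each line is a single derivation and was measured in 1 BD Rhapsody library, in which the mRNA of a single cell is taken up by a barcoded bead. No test between lines was therefore possible, a difference between lines includes any difference between their libraries, and the 95% intervals cover counting error only.

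The level of a gene is given in RPM, the reads of the gene among 1000000 reads of the line, over the cells of the deposited normalized tables, and a gene is captured in a cell that has at least 1 read of it. There were 3927 XN4, 3905 XN1, 3975 KN1, and 3448 CN4 cells. The lines had medians of 4637 to 7796 reads per cell, and of 2257 to 2824 genes per cell except in KN1, which had 833. Reads were not collapsed to molecules. The label of a neural stem cell was checked against marker genes, and XN4 stood apart. Of 10 neural progenitor markers, 7 in XN1, 4 in KN1, and 9 in CN4 were captured in at least 10% of cells, against 2 in XN4. In XN4, *Sox2* was captured in 0.56% of cells and *Fabp7*, *Sox3*, and *Hes5* had 0 reads, which allows up to 0.0722 RPM for each. *Sox2* was captured in 62.2% of XN1, 13.9% of KN1, and 83.9% of CN4 cells. Of 12 fibroblast markers, 10 were highest in XN4 by at least 2-fold, as were 9.69% of all genes compared. The summed level of the 12 was 3167 RPM in XN4, 1088 in XN1, 433 in CN4, and 479.6 in KN1. Most of the sum outside XN4 was *Fbln2*, with 870 RPM in XN1, 263 in CN4, and 454 in KN1, against 17 in XN4. Taken as lists, these markers went against the label for XN4. XN4 is therefore named by its line only, and every direction below that involves it is that of the library labelled XN4. Collagen levels with and without the cells that carry fibroblast markers are given below.

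Collagen reads were most frequent in XN4, where they made up 1.49% of all reads (95% interval, 1.48% to 1.49%). The share was 0.0807% in XN1 (0.0794% to 0.082%), 0.0543% in KN1 (0.0534% to 0.0552%), and 0.0567% in CN4 (0.0557% to 0.0577%). The XN4 share was above that of the other lines, which differed among themselves by much less. The excess was spread over the line and did not rest on a few cells. The median XN4 cell had 1.22% of its reads from collagen genes, and the 5th percentile of XN4 cells, at 0.446%, was above the 95th percentiles of XN1, KN1, and CN4, at 0.205%, 0.23%, and 0.119%. The median number of collagen genes captured in a cell was 11 in XN4, 2 in XN1, 2 in CN4, and 1 in KN1. After each cell was thinned to 3200 reads, the medians in the same order were 9, 2, 1, and 1, with 543 XN4, 776 XN1, 579 KN1, and 290 CN4 cells left out as too shallow. Cells with no collagen read made up 0.0764% of XN4, 7.61% of XN1, 27.7% of KN1, and 18.9% of CN4 cells.

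**Figure D1:**
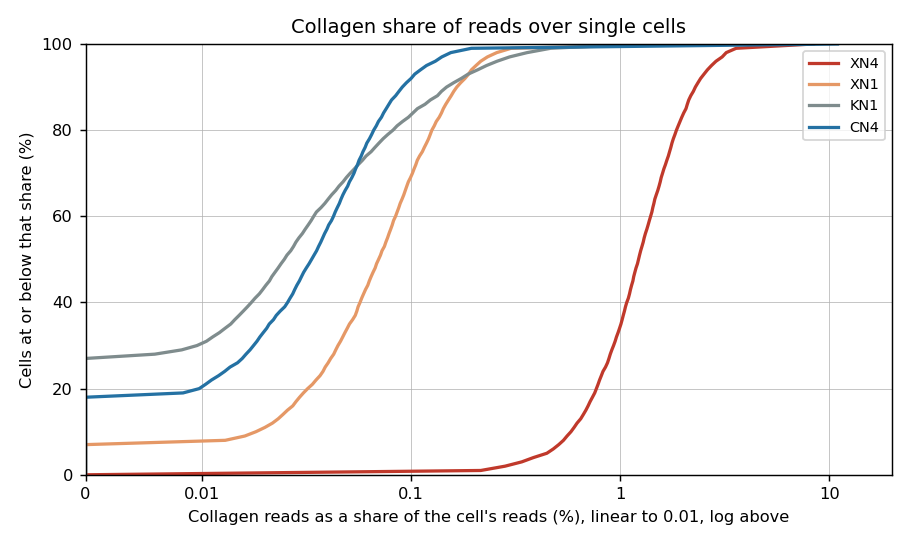
Share of each cell's reads that came from the 44 collagen genes (horizontal axis, percent, linear up to 0.01 and logarithmic above) against the percentage of cells at or below that share (vertical axis), with 1 curve for each line. The XN4 curve, with a median of 1.22%, lies to the right of the other 3, whose medians are 0.070% in XN1, 0.0248% in KN1, and 0.0335% in CN4.

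Of the 44 genes, 36 were captured in at least 1% of the cells of a line and were compared between lines. Of these, 21 were at least 2-fold higher in XN4 than in the highest of the other lines, against 9.69% of the 13804 genes that met the same limit. A single gene each was called in XN1 (*Col9a1*), KN1 (*Col19a1*), and CN4 (*Col7a1*), where 3%, 11.5%, and 2.07% of all genes were called, respectively, and 12 genes were called in no line. Of the 36 genes, 9 reached 1% of cells in XN4 alone, so that passing the limit favored a call in XN4. Among the 26 collagen genes that reached it in at least 2 lines, 13 were called in XN4, against 6.15% of the 12332 genes that met this limit. The median log2 difference between XN4 and the highest other line was 1.59 for the 36 genes and -0.49 for all genes compared. The other 8 genes (*Col2a1*, *Col4a3*, *Col6a4*, *Col6a5*, *Col10a1*, *Col13a1*, *Col17a1*, and *Col24a1*) were captured in under 1% of cells of every line, with at most 1.49 RPM. Among them, *Col2a1* encodes the chain of cartilage collagen. It had a read in 0.102% of XN4, 0.256% of XN1, and 0.232% of CN4 cells, and fractions of this size were not read as expression in other genes.

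**Figure D2:**
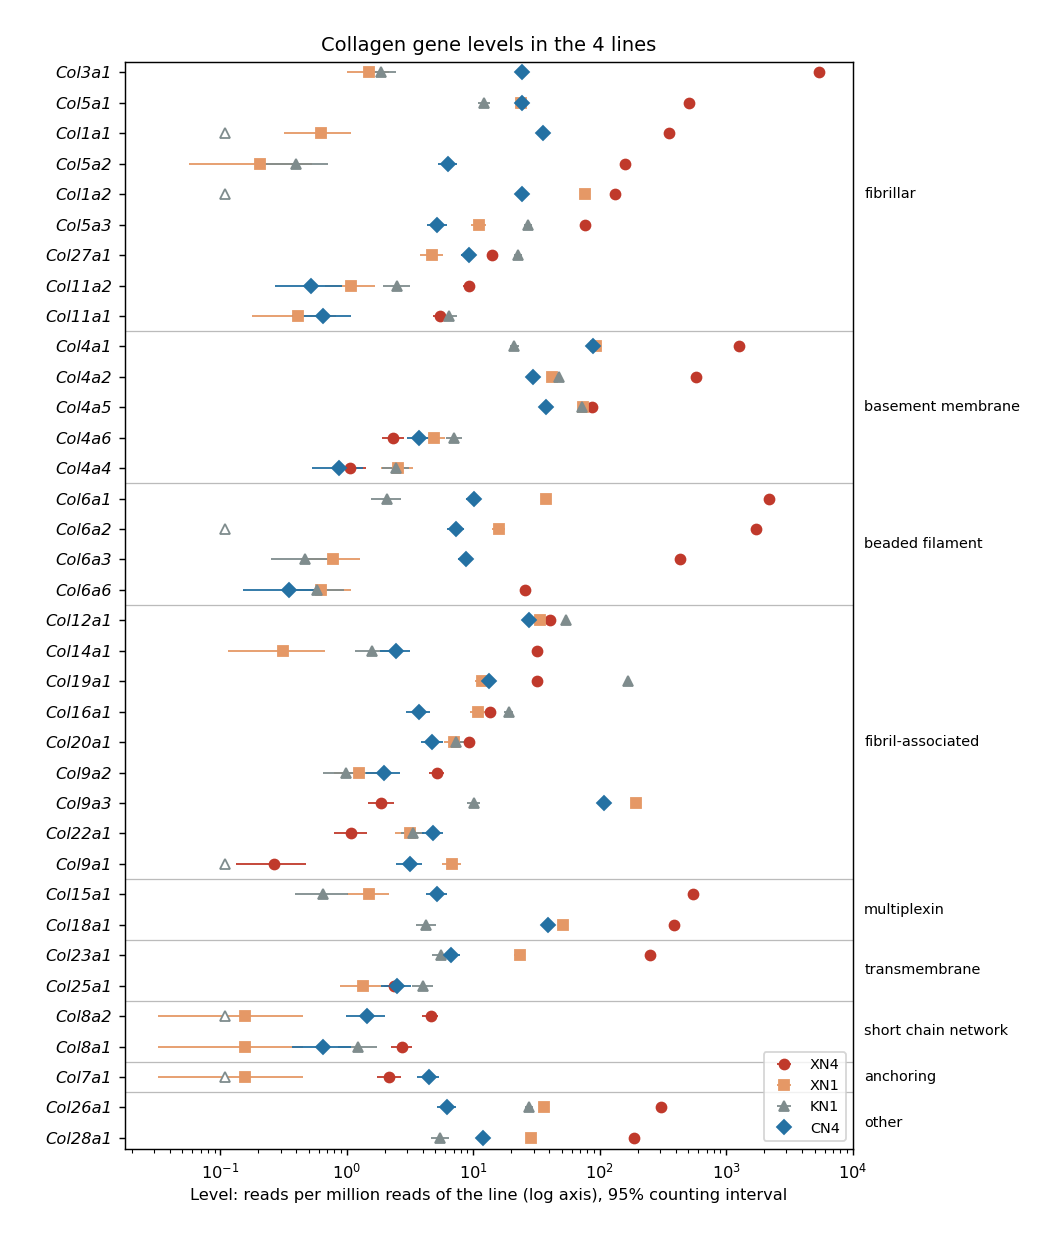
Level of the 36 compared collagen genes in each line, in RPM (horizontal logarithmic axis), grouped by structural class. Bars are 95% Poisson intervals. Open symbols stand at 3 reads for genes with 0 reads, which in KN1 include the genes not listed. XN4 (circles) stands to the right of the other lines for most fibrillar, beaded filament, and multiplexin genes, from 5474 RPM for *Col3a1* downward, while *Col9a3* is lowest in XN4 at 1.88.

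The fibrillar genes were the leading class in XN4, with a summed level of 6739 RPM, against 121 in XN1, 131 in CN4, and 74.6 in KN1. Of the 9 compared, 6 were called in XN4. *Col3a1*, the chain of the type III collagen of extensible tissues, had 5474 RPM in XN4, 1.5 in XN1, 24.1 in CN4, and 1.85 in KN1. It was captured in 97.8% of XN4 cells (97.2% to 98.2%) but in 0.154% of XN1, 1.23% of KN1, and 0.812% of CN4 cells. It was thus nearly universal in XN4 and at the level of *Col2a1* in XN1, the other line given XAV939. The few XN4 cells without it were shallow. Among all 8741 XN4 cells of the table of all reads, 201 had no *Col3a1* read, with a median of 5394 reads per cell against 12809 in the rest. *Col3a1* was missing from 11.9% of the tenth of XN4 cells with the fewest reads and from no cell of the tenth with the most.

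The genes of type I collagen, the main collagen of bone and skin, followed a different pattern from *Col3a1*. The level of *Col1a1* was 356 RPM in XN4, 0.623 in XN1, and 35.4 in CN4, and it was not listed for KN1. The fraction of cells with *Col1a1* was 23.4% in XN4 (22.1% to 24.7%), 0.256% in XN1, and 1.02% in CN4. The level of its partner *Col1a2* was 132 RPM in XN4, 76.7 in XN1, and 24.3 in CN4, and it was not listed for KN1. By the fraction of cells, however, *Col1a2* was most frequent in XN1, at 22.9% (21.6% to 24.3%), against 7.0% in XN4 (6.22% to 7.85%) and 2.47% in CN4. In cells thinned to 3200 reads, the fractions were 17.5%, 5.73%, and 1.55%. The order of XN4 and XN1 for *Col1a2* therefore depended on the measure. A *Col1a2*-positive cell had a mean of 19.9 reads of it in XN4 and 1.65 in XN1. The concentration of reads in few cells was counted over all 8741 XN4 and 14452 XN1 cells of the tables of all reads. The reads of *Col1a2* were concentrated in XN4, where 54 of 587 positive cells held 50% of them, against 968 of 3467 in XN1. Such a share of the *Col1a1* reads in XN4 came from 155 of 2055 positive cells, and those of *Col3a1* from 1249 of 8540. At the depth of these libraries, type I chains were thus captured in a minority of XN4 cells and the type III chain in nearly all.

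The 3 genes of type V collagen, which sets the diameter of fibrils, were all called in XN4. *Col5a1* had 513 RPM in XN4, 24 in XN1, 24.3 in CN4, and 12.2 in KN1, and was captured in 80.4% of XN4, 9.86% of XN1, 10.4% of CN4, and 1.99% of KN1 cells. It was 21.1-fold higher in XN4 than in CN4. *Col5a2* had 157 RPM in XN4, 0.208 in XN1, 6.28 in CN4, and 0.399 in KN1, with 21.9% of XN4 cells positive and at most 2.55% in the other lines. *Col5a3* had 76.5 RPM in XN4, 11.1 in XN1, 5.19 in CN4, and 27.1 in KN1 and was captured in 29.7% of XN4 cells and in 2.49% to 4.51% of the others. Its XN4 level was 2.82-fold that of KN1, a smaller step than for the other type V chains. *Col27a1*, *Col11a1*, and *Col11a2*, which are fibrillar genes best known from cartilage, stayed at or under 22.6 RPM in all lines. *Col27a1* had its highest level in KN1, 22.6 against 14 in XN4, although 5.88% of XN4 and 3.09% of KN1 cells captured it. The highest level of *Col11a2* was 9.22 in XN4, which was the sixth call of the class, and that of *Col11a1* was 6.42 in KN1, next to 5.49 in XN4.

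Basement membrane collagens were found in all lines. *Col4a1* and *Col4a2* encode the chains of the common type IV molecule. The level of *Col4a1* was 1273 RPM in XN4, 94.3 in XN1, 88 in CN4, and 21.2 in KN1, and it was captured in 85.6% of XN4 (84.5% to 86.7%), 30.9% of XN1 (29.4% to 32.4%), 2.54% of KN1 (2.07% to 3.08%), and 24.9% of CN4 cells (23.5% to 26.4%). The level of *Col4a2* was 573 RPM in XN4, 41.7 in XN1, 29.9 in CN4, and 48 in KN1, with captured fractions of 73.4%, 15.6%, 10.5%, and 5.01%. Both were called in XN4, by 13.5-fold and 11.9-fold. XN1 and CN4 had overlapping intervals for *Col4a1*, at 90.0 to 98.7 and 84.2 to 91.9 RPM, and KN1 had the least. Without the cells with fibroblast markers described below, the levels of XN1 and CN4 were further apart, at 94.2 and 66.3 RPM. In the tables of all reads, they were 76.1 and 69.0. *Col4a5*, a chain of the specialized networks of epithelia, varied less and was not called, with 86.6 RPM in XN4, 73.2 in XN1, 37.6 in CN4, and 72.1 in KN1. Its captured fractions were 28.5%, 24.1%, 16.2%, and 6.52% in the same order. *Col4a6*, its neighbor and partner, reached 7.04 RPM in KN1, and the other lines were between 2.34 in XN4 and 4.88 in XN1. *Col4a4* reached 2.54 in XN1 and 2.43 in KN1. Of the type IV genes, then, the pair of *Col4a1* and *Col4a2* alone passed the 2-fold limit.

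Type VI collagen separated XN4 from the other lines more widely than did type IV. *Col6a1* had 2185 RPM in XN4, 37.5 in XN1, 10.1 in CN4, and 2.07 in KN1 and was captured in 96.6% of XN4 (95.9% to 97.1%), 10.2% of XN1, 0.453% of KN1, and 1.71% of CN4 cells. The level of *Col6a2* was 1725 RPM in XN4, 15.9 in XN1, and 7.28 in CN4, and it was not listed for KN1. It was captured in 89.4% of XN4 and 4.74% of XN1 cells. *Col6a3*, the chain that completes the classical type VI molecule, had 429 RPM in XN4, 0.778 in XN1, 8.72 in CN4, and 0.472 in KN1 and was captured in 70.9% of XN4 cells but in 0.359% of XN1 cells. XN1 thus had reads of the first pair of chains with almost none of the third. *Col6a6*, an alternative to *Col6a3*, had 25.8 RPM in XN4, 0.623 in XN1, 0.349 in CN4, and 0.58 in KN1, with 10.1% of XN4 cells positive and at most 0.403% in the others. All 4 compared type VI genes were called in XN4, by 41.5-fold to 108-fold.

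The fibril-associated genes were the class in which lines other than XN4 stood out, and 2 of the 9 were called in XN4. The summed level of the class was 135 RPM in XN4, 271 in XN1, 170.0 in CN4, and 264 in KN1. *Col9a3*, a chain of type IX collagen, had 1.88 RPM in XN4, 196 in XN1, 108 in CN4, and 10.1 in KN1. It was captured in 53.2% of XN1 (51.6% to 54.8%) and 38.1% of CN4 cells (36.4% to 39.7%), but in 0.917% of XN4 and 1.36% of KN1 cells. It was the leading collagen gene of XN1 and CN4, both in reads and in reads per kilobase of exon, and it was called in no line because these were within 2-fold of each other. *Col9a1*, another type IX chain, had the same pair of lines on top, with 6.8 in XN1 and 3.14 in CN4, against 0.265 in XN4. It was called in XN1 at 2.17-fold. *Col9a2*, the chain that completes the molecule, had 5.15 RPM in XN4, 1.25 in XN1, 1.96 in CN4, and 0.98 in KN1 and was called in XN4. Of the type IX chains, *Col9a1* and *Col9a3* thus had XN1 as their leading line and *Col9a2* had XN4.

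*Col19a1*, a rare basement membrane-zone collagen that neurons also use, was the one collagen gene called in KN1. It had 31.8 RPM in XN4, 11.8 in XN1, 13.4 in CN4, and 167 in KN1, 5.26-fold higher in KN1 than in XN4. It was captured in 54.9% of KN1 (53.3% to 56.4%), 26% of XN4 (24.7% to 27.4%), 5.43% of XN1, and 8.0% of CN4 cells. After thinning, these fractions were 34.4%, 11.6%, 3.77%, and 4.02%. In KN1, it made up 30.8% of all collagen reads. The gene spans 326 kb of the genome with 6887 bases of exon, and reads in introns were counted, per the headers of the XN4, XN1, and CN4 tables. *Col12a1*, on the surface of fibrils, was within 2-fold in all lines, with 40.3 RPM in XN4, 33.9 in XN1, 27.5 in CN4, and 53.7 in KN1 and 6.01% to 15.3% of cells positive. *Col14a1*, its close relative, had 31.9 RPM in XN4, 0.311 in XN1, 2.44 in CN4, and 1.6 in KN1 and was called in XN4, where 11.5% of cells captured it. The highest levels of *Col16a1*, *Col20a1*, and *Col22a1* were 19.1 in KN1, 9.24 in XN4, and 4.79 in CN4, and none was called.

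The multiplexins, which anchor basement membranes and carry endostatin-type fragments, were both called in XN4. *Col15a1* had 543 RPM in XN4, 1.5 in XN1, 5.14 in CN4, and 0.653 in KN1 and was captured in 54% of XN4 cells and at most 0.551% elsewhere. *Col18a1* had 386 RPM in XN4, 51.1 in XN1, 38.7 in CN4, and 4.24 in KN1, and was captured in 54.5% of XN4, 17.2% of XN1, 11.5% of CN4, and 0.78% of KN1 cells. The relatives thus differed in XN1 and CN4, where *Col18a1* was captured in more than 10% of cells and *Col15a1* in under 1%. *Col23a1*, a transmembrane collagen, had 252 RPM in XN4, 23.3 in XN1, 6.71 in CN4, and 5.59 in KN1 and was captured in 57.8% of XN4 cells, against 7.14% in XN1. *Col25a1*, the transmembrane collagen of neurons, had at most 3.99, in KN1. *Col26a1* had 306 RPM in XN4, 36.4 in XN1, 6.19 in CN4, and 27.7 in KN1, with 68.9% of XN4 and 13.4% of XN1 cells positive. *Col28a1*, a collagen of the peripheral nerve, had 187 RPM in XN4, 28.6 in XN1, 11.9 in CN4, and 5.44 in KN1, with 46.9% and 10.0% of these cells positive. Both were called in XN4, and XN1 came second. The short-chain genes *Col8a1* and *Col8a2* reached 2.72 and 4.6 in XN4, where both were called. *Col7a1*, the collagen of anchoring fibrils, had 4.44 in CN4 and 2.17 in XN4, although 0.493% of CN4 and 1.22% of XN4 cells positive it.

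**Figure D3:**
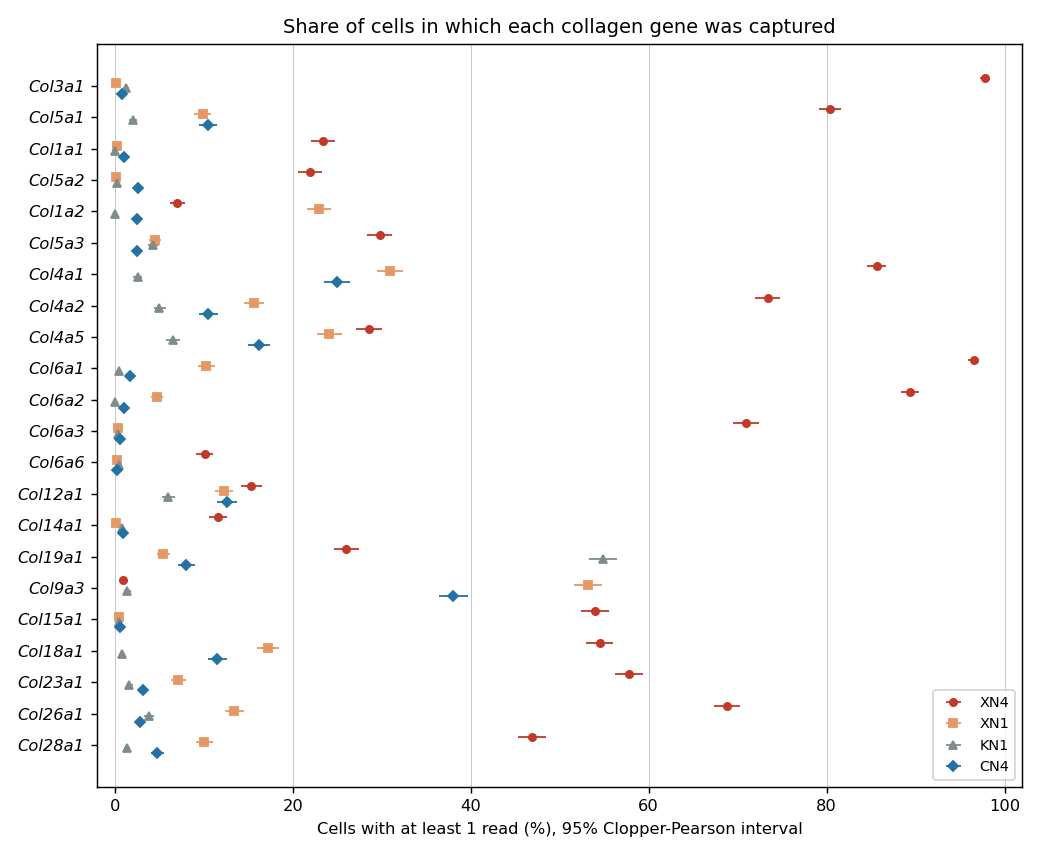
Percentage of cells with at least 1 read (horizontal axis) of the 22 collagen genes captured in at least 10% of the cells of a line, with 1 symbol for each line; bars are 95% Clopper-Pearson intervals. XN4 leads for most genes, *Col9a3* is led by XN1 (53.2%) and CN4 (38.1%), *Col1a2* by XN1 (22.9%), and *Col19a1* by KN1 (54.9%).

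The fraction of cells and the level did not always rank the lines alike. For 8 of the 36 genes (*Col1a2*, *Col4a5*, *Col4a6*, *Col7a1*, *Col8a1*, *Col12a1*, *Col16a1*, and *Col27a1*), the line with the highest level was not the line with the highest fraction of thinned cells, so that the leading line of these genes depends on the measure. Where they are counted as called or ordered here, this is by level alone. KN1 was often concerned. At 72.1 RPM of *Col4a5*, KN1 had a captured fraction of 6.52% and 7.67 reads per positive cell, whereas XN1, at 73.2 RPM, had 24.1% and 1.5 reads. KN1 had the fewest genes per cell at a similar number of reads, and the part of this in its captured fractions was not tested. *Col19a1* in KN1 did not share this feature, with 2.11 reads per positive cell. Of the 21 genes called in XN4, 20 also had their highest thinned fraction in XN4. Within XN4, the summed collagen level also varied with depth. In the table of all reads, whose totals include mitochondrial and ribosomal protein genes and which gives lower levels, it ranged from 6231 RPM in the tenth of cells with the fewest reads to 12569 in the tenth next to the deepest.

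To compare genes with each other, levels were divided by the length of the exons of each gene. In XN4, *Col3a1* and *Col6a1* led with 558 and 499 RPM per kilobase, followed by *Col6a2* with 207 and *Col4a1* with 170.5. In XN1, *Col9a3* led with 50.7, followed by *Col4a1* with 12.6, and in CN4 the same genes led with 28.1 and 11.8. In KN1, *Col19a1* led with 24.3, followed by *Col4a5* with 10.7. On this scale, the leading collagen was therefore of a fibrillar type in XN4 and of a fibril-associated type in the other lines. As the beads capture poly(A) tails, reads do not need to scale with length, and these ranks are a description.

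Several of these genes lie next to each other in the mouse genome (GRCm38), and 10 pairs of collagen genes are separated by less than 1 Mb. Some neighbors were both called in XN4. *Col4a1* (chr8:11198423-11312826) and *Col4a2* (chr8:11312805-11449287) lie head to head with an overlap of 22 bases at their starts. *Col3a1* (chr1:45311538-45349706) and *Col5a2* (chr1:45374321-45503282) lie tail to tail, 24614 bases apart. *Col6a2* (chr10:76595762-76623630), *Col6a1* (chr10:76708792-76726168), and *Col18a1* (chr10:77052178-77166548) follow each other on the same strand, at distances of 85161 and 326009 bases. Other neighbors differed. *Col9a1* (chr1:24177610-24252684) was called in XN1 and *Col19a1* (chr1:24261890-24587472) in KN1, although their ends are 9205 bases apart. *Col4a6* and *Col4a5*, head to head on the X chromosome at a distance of 1308 bases, had their highest levels in KN1 and XN4, respectively. *Col9a3* shares 234 bases of exon with *Tcfl5* on the opposite strand, and its reads are uncertain to that extent.

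The sequences upstream of 5 genes called in XN4, of *Col19a1*, and of the first start of its neighbor *Col9a1* are given because they are among the leading genes of XN4 and the single calls of KN1 and XN1. They end before the first base of an annotated exon and were read 5′ to 3′ from the RefSeq promoter windows of GRCm38.p6, with the CCAAT box (letters CCAAT), the TATA box (letters TATAAA), and the GC box (letters GGGCGG), on either strand, in capitals:
Col3a1, chr1:45311288-45311537, forward strand: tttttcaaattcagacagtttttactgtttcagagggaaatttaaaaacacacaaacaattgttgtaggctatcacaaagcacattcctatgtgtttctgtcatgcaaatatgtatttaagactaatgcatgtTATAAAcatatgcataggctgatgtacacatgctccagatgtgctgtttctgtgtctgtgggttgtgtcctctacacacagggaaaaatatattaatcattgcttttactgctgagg
Col5a1, chr2:27886175-27886424, forward strand: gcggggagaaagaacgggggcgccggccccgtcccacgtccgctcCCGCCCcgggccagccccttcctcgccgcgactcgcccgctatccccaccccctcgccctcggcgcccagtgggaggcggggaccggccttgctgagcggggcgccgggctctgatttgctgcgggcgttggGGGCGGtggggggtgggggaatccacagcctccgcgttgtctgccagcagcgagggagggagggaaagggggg
Col6a1, chr10:76726169-76726294, reverse strand: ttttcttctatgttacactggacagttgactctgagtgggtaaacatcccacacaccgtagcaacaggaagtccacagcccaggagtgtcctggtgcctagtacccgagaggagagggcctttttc
Col6a2, chr10:76623631-76623880, reverse strand: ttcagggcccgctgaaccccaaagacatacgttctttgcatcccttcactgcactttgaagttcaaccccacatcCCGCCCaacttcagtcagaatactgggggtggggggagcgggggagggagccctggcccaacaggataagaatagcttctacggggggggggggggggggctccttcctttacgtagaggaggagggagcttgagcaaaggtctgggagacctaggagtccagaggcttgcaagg
Col15a1, chr4:47207762-47208011, forward strand: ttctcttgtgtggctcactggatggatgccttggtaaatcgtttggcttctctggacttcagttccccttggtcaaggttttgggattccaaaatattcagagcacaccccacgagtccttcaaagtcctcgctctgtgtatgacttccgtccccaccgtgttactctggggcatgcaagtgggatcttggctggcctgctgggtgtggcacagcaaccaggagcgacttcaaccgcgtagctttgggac
Col19a1, chr1:24587473-24587687, reverse strand: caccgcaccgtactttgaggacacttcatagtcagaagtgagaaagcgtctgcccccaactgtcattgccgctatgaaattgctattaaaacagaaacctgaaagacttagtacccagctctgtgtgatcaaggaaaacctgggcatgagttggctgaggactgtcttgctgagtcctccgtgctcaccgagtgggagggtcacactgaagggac
Col9a1, chr1:24177360-24177609, forward strand: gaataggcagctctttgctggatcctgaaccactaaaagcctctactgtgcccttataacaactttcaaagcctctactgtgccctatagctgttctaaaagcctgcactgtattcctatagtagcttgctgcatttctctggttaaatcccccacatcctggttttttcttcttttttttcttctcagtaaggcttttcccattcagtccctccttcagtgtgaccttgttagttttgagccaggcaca

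Within these stretches, *Col3a1* holds a TATA box, *Col5a1* holds a GC box on each strand, *Col6a2* holds it on the reverse strand, and the other 4 hold none of the 3 motifs. They also differ in base composition, from 35.2% G and C in the 250 bases upstream of *Col3a1* to 76.4% upstream of *Col5a1*. RefSeq windows of 250 bases before to 50 after the start were found for 35 collagen genes (38 windows). The GC box was present in 60.5% of these windows and in 35.7% of all 32851 windows. The CCAAT box was present in 34.2% against 37.4%, and the TATA box in 13.2% against 13.6%. In the 19 windows of the 17 genes called in XN4 that had one, the percentages were 68.4%, 21.1%, and 10.5%. A match to such short motifs is a description of the sequence only.

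The capture of pairs of collagen genes in the same cell, both chains of one type and chains of fibrils that mix types, was compared with the number expected within 20 strata of cells with like total reads, over all cells of XN4, XN1, and CN4. Pairs with at least 5 expected cells were used. In XN4, the 9 pairs had ratios of observed to expected cells from 1.01 to 1.54, and none reached 2. Since most of these pairs hold a gene found in nearly all XN4 cells, only 2 of the 9 could have reached it, *Col1a1* with *Col1a2* and *Col4a5* with *Col4a6*. *Col1a1* and *Col1a2* were found together in 161 XN4 cells where 150.2 were expected, a ratio of 1.07 (0.913 to 1.25). Of the *Col1a1*-positive XN4 cells, 7.83% had a read of *Col1a2*. At this depth and with 1 read for capture, the chains of type I collagen were thus not captured together in XN4 beyond what the depth of the cells gave. With 2 reads for capture, an XN4 pair did reach a ratio of 2, as given in the closing section. Which pair this was is not given, so the statement on the type I chains is limited to capture by 1 read. The XN4 cells with at least 5 fibroblast markers, a set described below, held 87.65% of the *Col1a1* and 81.8% of the *Col1a2* reads of XN4. They were 42.8% of XN4 cells and were deeper, with a median of 20551 reads against 8946, so that a large share is found for other genes too. They held 76.0% of the *Col3a1*, 67.5% of the *Col6a1*, 58.8% of the *Col26a1*, and 44.6% of the *Col19a1* reads of XN4. In XN1, *Col6a1* and *Col6a2* were found together in 352 cells where 83.5 were expected, a ratio of 4.22 (3.79 to 4.68), and 51.2% of *Col6a2*-positive cells had *Col6a1*. The ratio was 4.22 without the cells with fibroblast markers described below. *Col4a1* and *Col4a2* had ratios of 1.03 (1.01 to 1.06) in XN4, 1.18 (1.11 to 1.26) in XN1, and 1.34 (1.25 to 1.42) in CN4. In KN1, 6 cells had both where 6.42 were expected, and it was the one usable pair. *Col4a5* and *Col4a6* had 1.54 (1.17 to 1.99) in XN4, 1.56 (1.32 to 1.84) in XN1, and 1.63 (1.35 to 1.95) in CN4. *Col9a1* and *Col9a3* had 1.06 (0.93 to 1.21) in XN1 and 1.04 (0.891 to 1.22) in CN4.

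In CN4, 4 of the 8 usable pairs reached a ratio of 2, all among the genes with few positive cells. *Col6a1* and *Col6a2* had 16.9 (13.6 to 20.9), *Col1a2* and *Col3a1* 13.2 (10.3 to 16.7), *Col1a1* and *Col1a2* 7.85 (6.07 to 9.98), and *Col3a1* and *Col5a2* 6.49 (4.66 to 8.8). Most positive cells nevertheless lacked a read of the other gene of the pair. Of the *Col6a1*-positive CN4 cells, 22.9% had *Col6a2*, and of the *Col1a2*-positive cells, 14.5% had *Col3a1*.

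**Figure D4:**
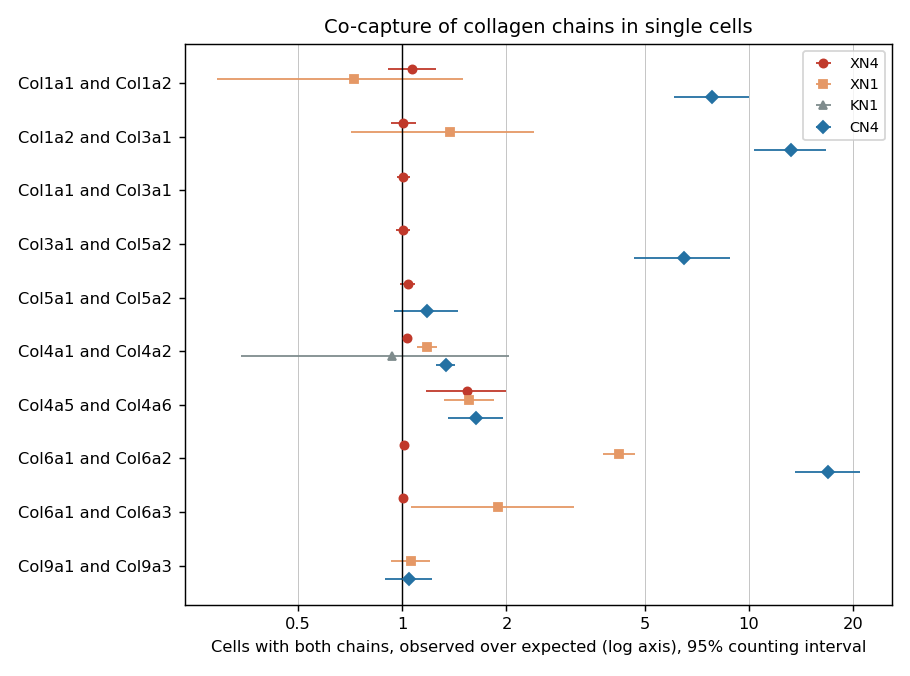
Cells with both chains of a pair, observed over expected within 20 strata of total reads (horizontal logarithmic axis), for pairs with at least 5 expected cells; bars are 95% Poisson intervals of the observed number, and the vertical line marks 1. The XN4 ratios lie near 1 except for *Col4a5* and *Col4a6*, most of them limited by genes found in nearly all cells, and the largest CN4 ratio is 16.9 for *Col6a1* and *Col6a2*.

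A set of CN4 cells was defined by genes that are not collagens. Cells with reads of at least 5 of the 12 fibroblast markers numbered 67 of 18157 in CN4 (0.369%, interval 0.286% to 0.468%), a limit chosen after the values were seen. They had a median of 10897 reads against 9168 in the other CN4 cells, and 1 of them had a barcode that was also an XN4 cell. In these 67 cells, *Col6a3* was captured in 95.5% (87.5% to 99.1%) against 0.376% of other CN4 cells. *Col3a1* was captured in 89.6% (79.7% to 95.7%) against 0.708%, and *Col1a1* in 76.1% (64.1% to 85.7%) against 1.31%. The fraction with *Col3a1* depended on the limit, with 38.4% of 190 cells at 4 markers and 94.4% of 54 cells at 6. Unlike in XN4, *Col1a2* was as frequent as these, with 89.6% against 2.34%. *Col7a1*, the one gene called in CN4, was captured in 61.2% against 0.216%. The cells held 87.8% of the *Col6a3*, 87.4% of the *Col1a1*, 83.5% of the *Col3a1*, and 83.3% of the *Col7a1* reads of CN4. *Col9a3* went the other way, with 16.4% (8.49% to 27.5%) against 41.6%, as did *Sox2*, with 20.9% against 86.2%, and the trunk gene *Hoxa7*, with 11.9% against 63.3%. In XN1, 37 of 14452 cells met the same limit, with a median of 9654 reads against 5977. Of these, 16.2% had *Col3a1* (6.19% to 32%) against 0.187% of the other XN1 cells, and 62.2% had *Sox2* against 63.5%. Unlike in CN4, *Sox2* was thus about as frequent in the XN1 cells with fibroblast markers as in the others. In XN4, 3741 of 8741 cells met the limit, with a median of 20551 reads against 8946. Over all reads, the XN4 level in cells that met it and in the others was 4599 against 2475 RPM for *Col3a1*, 368 against 88.2 for *Col1a1*, 1084 against 501 for *Col4a1*, and 1580.0 against 1291 for *Col6a1*. Other genes called in XN4 were lower in the cells that met it, among them *Col26a1* (198 against 236), *Col23a1* (170 against 184), and *Col28a1* (108 against 152). These sets of cells were not matched for depth, with which the *Col3a1* level also varied. In XN4 cells binned by total reads, it rose from 1902 RPM at a median of 4471 reads to 4905 at 26568. In the deepest bin, with a median of 39153.5 reads, it was 3944. The part of depth in the differences between cells that met the limit and the others was not tested. *Col3a1* was still captured in 96.1% of the other XN4 cells, of which 0.34% had *Sox2*.

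**Figure D5:**
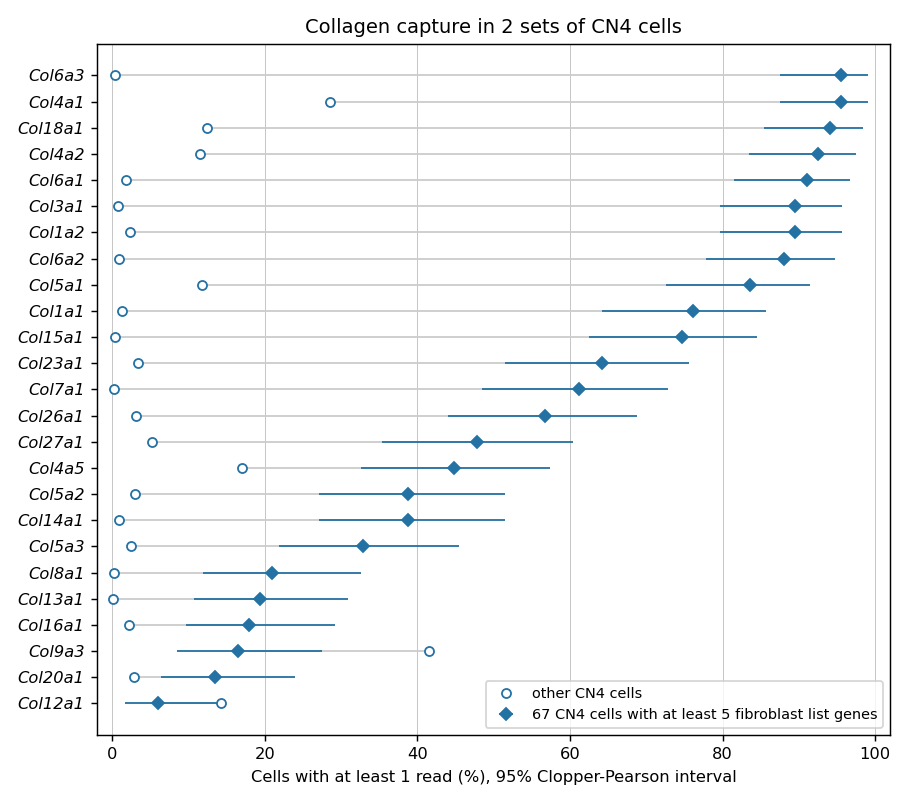
Percentage of CN4 cells with at least 1 read (horizontal axis) of each collagen gene, in the 67 cells with reads of at least 5 of 12 fibroblast markers (filled symbols, with 95% Clopper-Pearson intervals) and in the other CN4 cells (open symbols); genes at 10% or more in either set are shown. *Col6a3* stands at 95.5% and 0.376%, and *Col9a3* and *Col12a1* are lower in the filled set.

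The levels of CN4 given above depend on such cells, of which the normalized table held 8 of 3448. Without them, the CN4 level was 1.88 in place of 35.4 RPM for *Col1a1*, 6.95 in place of 24.1 for *Col3a1*, 6.47 in place of 24.3 for *Col1a2*, 3.32 in place of 10.1 for *Col6a1*, and 1.66 in place of 8.72 for *Col6a3*. *Col6a2* went from 7.28 to 2.36 and *Col15a1* from 5.14 to 2.32. *Col4a1* and *Col18a1*, of which most reads came from other CN4 cells, moved less, to 66.3 and 29.5. The ratio of *Col1a1* and *Col1a2* in the same cells was 2.8 in place of 7.85. The call of *Col7a1* moved from CN4 to XN4, with 0.699 RPM left in CN4 against 2.17 in XN4, and the number of genes called in XN4, with all XN4 cells kept, was then 22. When the 1608 of 3927 XN4 cells that met the limit were left out as well, the XN4 levels were 3926 RPM for *Col3a1*, 138 for *Col1a1*, and 789 for *Col4a1*, and 21 genes were called in XN4. While these levels fell, others rose, among them *Col26a1* from 306 to 376, *Col23a1* from 252 to 283, and *Col28a1* from 187 to 248. As the XN4 cells that met the limit were deeper in the table of all reads, depth may differ here too. Its part in these changes was not tested.

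Collagen levels were compared between dividing cells, with reads of at least 2 of *Hmgb2*, *Mki67*, and *Top2a*, and cells with none of them. The summed level was 13448 against 15356 RPM in XN4 (1055 and 1916 cells), 685 against 872 in XN1 (1072 and 2011 cells), 503 against 570.1 in KN1 (1066 and 1827 cells), and 436 against 953 in CN4 (2113 and 709 cells). It was lower in the dividing cells of each line. Among genes captured in at least 10% of cells, 17 of 20 collagen genes were lower in dividing XN4 cells, where 53.8% of all such genes were lower, 8 of 10 in XN1 (50.3%), 1 of 1 in KN1 (47%), and 6 of 7 in CN4 (53.9%). The genes were not alike. In XN4, *Col3a1* had 5314 against 5271 RPM and *Col1a1* 358 against 357, while *Col4a5* had 57.2 against 116, *Col5a3* 44 against 103, and *Col4a2* 423 against 689. *Col19a1* in KN1 had 159 against 173. In CN4, *Col4a1* had 60.7 against 161 and *Col18a1* 29.5 against 77, whereas *Col9a3* had 98.8 against 119.6. Without the cells with fibroblast markers, the CN4 level was 66.3 in place of 88 for *Col4a1* and 29.5 in place of 38.7 for *Col18a1*. For *Col9a3* it was 108.7 in place of 108.4. Dividing and other CN4 cells were not compared for these single genes without the cells with fibroblast markers. The dividing cells were deeper, with a median of 13575 against 5449.5 reads in XN4. Within 10 bins of cells by total reads, the ratio of the summed levels was 0.787 in XN4, 0.827 in XN1, 0.322 in CN4, and 0.991 in KN1, and without the cells with fibroblast markers the CN4 ratio was 0.638 in place of 0.458.

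The genes that fold, process, bind, and degrade collagen were counted in the same way. Of 22 genes for folding and modification in the endoplasmic reticulum, all were compared. XN4 had 3 calls, XN1 had 2, KN1 had 1, and CN4 had 0, against the 9.69%, 3%, 11.5%, and 2.07% of all genes. Their summed level was 4072 RPM in XN4, 3919 in XN1, 2234 in CN4, and 1346 in KN1. *P4ha2*, a subunit of prolyl 4-hydroxylase, had 57.9 RPM in XN4, 0.467 in XN1, and 0.567 in CN4, and it was not listed for KN1. *Creb3l1*, a transcription factor of secretory cells that make collagen, had 195 RPM in XN4, 30.3 in XN1, 6.67 in CN4, and 2.94 in KN1. *Crtap*, of the prolyl 3-hydroxylation complex, had 316 RPM in XN4, 100.4 in XN1, 68.3 in CN4, and 28.2 in KN1. *Plod1* and *Colgalt2*, which modify lysine, were called in XN1 with 129 and 91.3 RPM.

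The next lists act outside the cell or at its surface. Of 13 compared genes for processing and crosslinking, 5 were called in XN4 (9.69% of all genes), 1 in XN1 (3%), 1 in KN1 (11.5%), and 0 in CN4 (2.07%). *Loxl2*, a lysyl oxidase, had 778 RPM in XN4, 19.5 in XN1, 23.2 in CN4, and 5.04 in KN1, and *Pcolce*, an enhancer of propeptide cleavage, had 629 RPM in XN4, 33.8 in XN1, 6.75 in CN4, and 13.4 in KN1. *Lox*, *Adamts2*, and *Loxl3* had 68.4, 52.9, and 47.5 in XN4. Of 9 compared receptors, 1 was called in XN4 and 1 in KN1, shares close to those of all genes. The XN4 call was *Ddr2*, the discoidin domain receptor for fibrillar collagen, with 571 RPM in XN4, 3.37 in XN1, 2.48 in CN4, and 43 in KN1. Of 11 compared genes for degradation, 4 were called in XN4 (9.69% of all genes), 1 in KN1 (11.5%), and 1 in CN4 (2.07%). *Mmp2*, a gelatinase, had 1376 RPM in XN4, 164 in XN1, 36.1 in CN4, and 20.5 in KN1, and *Fap*, a fibroblast surface protease, had 468 RPM in XN4, 0.415 in XN1, 0.392 in CN4, and 0.907 in KN1. *Mmp16* was called in KN1 with 279, and *Timp4*, an inhibitor of metalloproteinases, in CN4 with 153 and 44.1% of cells.

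Among the markers of other cell types that carry collagen, XN4 was highest by at least 2-fold for 2 of 5 compared mural markers (*Kcnj8* and *Abcc9*, at 2.5 and 24.3 RPM) and 2 of 5 leptomeningeal markers (*Foxc1* and *Tbx18*, at 196 and 118), against 9.69% of all genes, and for none of the compared endothelial, neural crest, and cartilage markers. Of the mural markers, *Myh11* was called in KN1, at 15 RPM against 1.08 in XN4, *Acta2* was also highest in KN1, at 10.2 against 5.01 in XN4, and *Notch3* was highest in CN4, at 106. Other leptomeningeal markers went the other way. *Zic1* and *Slc6a13* were called in CN4, at 246 and 3.83 RPM, and *Ptgds* had 0.144 RPM in XN4, 55.3 in XN1, 54.6 in CN4, and 92.2 in KN1. The summed mural level was 84.8 to 117 RPM over the lines, the leptomeningeal 98.9 in KN1 to 363 in CN4, the endothelial 4.51 to 15.7, the neural crest 14.5 to 113, and the cartilage 169 to 526. The cartilage sums were almost all *Sox9*, at 169 in XN4 and 526 in XN1, which was the 1 cartilage marker compared. *Ets1* alone had 109 of the 113 RPM of the neural crest markers in XN4. Of the fibroblast markers called in XN4, *Dcn*, *Prrx1*, *Fn1*, and *Pdgfra* had 1224, 829, 438, and 246 RPM in XN4, and *Postn*, *Lum*, *Pdgfrb*, *Twist1*, *Twist2*, and *S100a4* had 21.4 to 115. *Thy1* was highest in XN1, and *Fbln2* was highest in XN1 with 869.7 and lowest in XN4 with 17.

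Finally, the levels were placed in the order of Wnt signal input, with the library labelled XN4 as the lowest. They fell at every step from XN4 to CN4 for 3 of the 36 collagen genes (*Col4a5*, *Col6a6*, and *Col26a1*), against 2.58% of all genes, and rose at every step for 1 (*Col22a1*), against 3.55%. A fall needs the highest level in XN4, which 24 of the 36 genes had. The number of falls is therefore not separate from the high collagen levels of XN4. By thinned fractions, 2 fell and 0 rose. *Col26a1* fell from 306 to 6.19 RPM and *Col6a6* had levels in XN1, KN1, and CN4 between 0.349 and 0.623, which rest on 12, 16, and 8 reads with overlapping intervals. For *Col4a5*, the levels of XN1 and KN1, 69.4 to 77.1 and 68.9 to 75.3, had overlapping intervals. The same held for *Col22a1*, with 2.42 to 4.07 RPM in XN1 and 2.69 to 4.09 in KN1.

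Barcodes found in more than 1 library were also counted. In the tables of all reads, XN4 shared 139 barcodes with XN1 and 169 with CN4, and XN1 shared 320 with CN4. *Col3a1* was captured in 0.719% (0.0182% to 3.94%) of the XN1 cells with an XN4 barcode and in 0.224% of the other XN1 cells. In CN4, the fractions were 1.18% (0.144% to 4.21%) and 1.03%. For *Col6a1*, they were 13.7% (8.43% to 20.5%) and 11.1% in XN1, and 1.18% (0.144% to 4.21%) and 2.07% in CN4. All of these intervals included the fraction in the other cells.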

How the data were processed

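Cells of the 4 lines were dissociated and loaded on BD Rhapsody cartridges, with 1 library per line. Read counts of every gene and cell were deposited for CN4, XN1, and XN4. Per the file headers, they came from the BD Rhapsody WTA Analysis Pipeline (1.12.1) and GRCm38 with GENCODE genes, and intronic reads were kept. A random part of the cells of each line, including KN1, was also deposited by the authors as natural log values, scaled to 10000 reads per cell without mitochondrial and ribosomal protein genes, for which the submitters' notes name Seurat 4.3.0. These were turned back into reads, and 100% came out whole within 0.01. The listed reads were 70.0% of all reads of the same cells in XN4, 79.1% in XN1, and 77.8% in CN4. Collagen genes that a normalized table left out as rare were read from the table of counts for the same cells. For KN1 the normalized table alone was used, and a gene it leaves out was set at 0 reads. Its rarest listed gene had reads in 7 cells, but rarity is not the sole reason for a gene to be left out: the XN4 table lacked *Zranb2*, captured in 2655 of its cells. These zeros of KN1 are therefore less certain.

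Total reads were 41539513 for XN4, 27563145 for KN1, 22947874 for CN4, and 19271688 for XN1. No doublets were removed. Intervals at 95% are Poisson for reads and Clopper-Pearson for cells; reads from PCR are not independent, so they cover counting error only, as does the upper limit of 3 reads for a count of 0. Genes captured in at least 10% of cells of a line were given in every line, and those from 1% to 10% at least in their highest line. Gene positions and exon lengths came from GENCODE M21. Calculations used Python 3.11.15 with numpy 2.4.6 and scipy 1.17.1, and simulated data with known answers were used to test the procedures. The collagen genes and the marker and pathway lists were chosen with earlier results of these data known. Leaving out cells with fibroblast markers (in XN1 and CN4, or in XN4 as well), comparing within 10 bins of total reads, and the tables of counts without KN1 were chosen after seeing the data.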

Additional observations from a re-analysis of the deposited data

How the results depend on the processing

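The number of collagen genes called in XN4, 21, ran from 16 to 23 over 4-fold and 1.5-fold limits, the thinned fraction, the mean over cells, a 5% limit on capture, no limit, collagen reads left out of the total, the tables of all reads without KN1, and leaving out cells with fibroblast markers in XN1 and CN4 or in all lines. The single calls were less stable. That of XN1 went to 0 at 4-fold and with the 5% limit, and to 2 at 1.5-fold, with thinned fractions, and without KN1. That of KN1 went to 3 at 1.5-fold, and that of CN4 to 0 at 4-fold, with thinned fractions, the mean over cells, the 5% limit, without KN1, and without cells with fibroblast markers in either way (0). The gene that rose in the order of Wnt input was lost (0) with thinned fractions and with the 5% limit. The share of collagen reads was 1.03% in XN4, 0.0641% in XN1, and 0.0424% in CN4 over the tables of all reads, whose totals include the mitochondrial and ribosomal protein genes. As the median over cells it was 1.22%, 0.070%, 0.0248% (KN1), and 0.0335%, and without the 5% of cells with the most reads it was 1.51% in XN4. Of the partner pairs, those at a ratio of 2 numbered 1 in XN4 with 2 reads for capture, 2 in XN1 with 5 or no strata or with 2 reads, and in CN4 0 over the normalized table, where fewer pairs were usable, and 1 without the cells with fibroblast markers, where the other 3 had under 5 expected cells at ratios of 8.98, 3.83, and 3.63. At 4-fold, 3 processing genes were called in XN4, and 2 receptors were with the mean over cells. Of the CN4 cells chosen by 4 in place of 5 fibroblast markers, 38.4% had *Col3a1*. With 2 reads for capture, 0% of XN1 cells with an XN4 barcode had it. Of the levels of single genes and lines, 10 of 66 moved by over 1.5 times in the tables of all reads, 2 of 88 as the mean over cells, and 7 of 66 without the cells with fibroblast markers. Captured fractions moved as much in 63 of 88 with 2 reads for capture and in 45 of 88 after thinning, both of which can lower them alone. Where no cause is named, it was not tested. No paired analysis was possible because each line has 1 library.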
